A study of Rattus norvegicus with 12 samples.

Results

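Messenger RNA of the MHC and of the antigen presentation machinery was followed in rat PAC1 cells, a pulmonary artery smooth muscle line, after depletion of 3 splicing regulators. The members were the rows of the count table whose symbol begins with RT1-, the prefix of the rat MHC, and 14 named partners (B2m, Tap1, Tap2, Tapbp, Erap1, Calr, Psmb8, Psmb9, Psmb10, Psme1, Psme2, Nlrc5, Ciita and Cd74). They were 61 of 33294 rows, 47 of them RT1- rows. The 12 poly(A) RNA-seq libraries formed 4 groups of 3: cells given the control siRNA C2 (control) and cells given an siRNA against RBPMS (RBPMS-KD), RBFOX2 (RBFOX2-KD) or QKI, listed as Qk (QKI-KD). Per the labels, all groups were wild-type PAC1 cells of 1 line. They received 90 pmol of siRNA with a second transfection after 24 h and harvest 48 h after that, also per the labels. The study's methods describe longer intervals. The study describes these knockdowns as made in PAC1 cells cultured to be differentiated. It reports the control cells as less differentiated than those of its other RNA-seq experiment. The study states biological replicates without giving the source of each library, so p-values measure the spread between these libraries.

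The siRNA strands set the groups apart and are shown as the study lists them, sense strand, with no capitals because no part is marked.
C2: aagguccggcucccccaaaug
RBPMS: ggcggcaaagccgagaaggcgaaca
RBFOX2: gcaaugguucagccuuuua
QK: ggacuuacagcuaaacaac

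MHC class I molecules present peptides from inside the cell to CD8 T cells, and nearly all nucleated cells carry them. The proteasome cuts cytosolic proteins, the transporter TAP moves the peptides into the endoplasmic reticulum, and tapasin, calreticulin and the aminopeptidase ERAP1 help to fit them into a heavy chain paired with beta-2-microglobulin. Interferon exchanges 3 catalytic proteasome subunits for those of the immunoproteasome, and NLRC5 drives class I genes while CIITA drives class II genes. MHC class II presents endocytosed antigen and is a mark of professional antigen-presenting cells. The rat class I genes are a large family of similar sequences. RT1-A holds the classical molecules, and RT1-C/E, -N, -S, -T and -M hold mostly non-classical or less studied ones.

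Each library held 111 to 152 M counts, of which the members took 0.237 to 0.331%. These unequal totals do not match the methods of the study, which describe reducing every library to the same, smaller number of reads, so what 1 count stands for is not known and counts may not be independent fragments. The target of each siRNA was lower in its own group, with log2 fold changes of -2.50 ± 0.065 for Rbpms, -2.05 ± 0.044 for Rbfox2 and -3.13 ± 0.04 for Qk (± SE throughout for fold changes). The cells carried smooth muscle markers, whose 9 genes summed to 2120 to 2185 CPM in control and 1084 to 1193, 837 to 936 and 1458 to 1546 CPM in RBPMS-KD, RBFOX2-KD and QKI-KD. The single markers went both ways. At an edgeR adjusted p under 0.05, 6, 5 and 5 of the 9 were lower and 3, 2 and 3 higher. Of all genes tested, 29.0%, 30.1% and 34.0% were lower and 30.4%, 30.1% and 32.9% higher. Levels are in CPM, the counts scaled by the library total and the TMM factor, as mean ± SD of n = 3 libraries where a ± follows a level. The count table gives no gene length, so levels are compared between groups and not between genes.

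Of the 61 members, 44 passed the filter on low counts and were tested with edgeR's quasi-likelihood test, with Benjamini-Hochberg adjustment over 18438 genes ("edgeR adjusted p" below). Of these, 21 had a mean of at least 5 CPM. By role, 27 of 37 class I heavy chain rows were tested, 4 of 11 class II members, and all 13 of the others. "Rose" and "fell" are used for an adjusted p under 0.05, and "changed" where the absolute log2 fold change also exceeded 1, the rule in the study's methods. The 3 knockdowns were compared with the same 3 control libraries, so the comparisons are not independent. The counts over members are over the 44 that passed the filter.

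In RBPMS-KD the machinery leaned downward. Of the 44 tested members 27 fell, against 29.0% of all genes tested, and 4 rose, against 30.4%. Their median log2 fold change was -0.52, against 0.0085 over all genes tested. In QKI-KD 26 fell, against 34.0% of all genes, and 4 rose, against 32.9%, with a median of -0.52 against 0.0070. Most of the QKI-KD falls, 20 of 26, were class I rows. Of the 13 members outside the class I and class II rows, 9 fell and 1 rose in RBPMS-KD, while 5 fell and 3 rose in QKI-KD, where the share that fell was near that of all genes. RBFOX2-KD was mixed, with 16 members lower against 30.1% of all genes, 10 higher against 30.1%, and a median of -0.083 against 0.015. Many of the class I rows are near copies that can share reads, so they are not separate measurements.

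Large changes were few. Past the 2-fold limit, 1 member was higher and 4 were lower in RBPMS-KD, where 5.16% of all genes were higher and 4.50% lower. In RBFOX2-KD 1 was higher and 2 were lower, against 6.96% and 4.73%. No member passed it in QKI-KD, against 8.28% of all genes higher and 9.24% lower, although 30 passed the adjusted p alone. The same rule with limma on the normalised table gave 1. The 5 members changed in RBPMS-KD were RT1-M6-2, which was higher, and RT1-M3-1, RT1-A3, RT1-DMa and Nlrc5, which were lower. The 3 changed in RBFOX2-KD were RT1-M6-2, higher, and RT1-DMa and RT1-DOb, lower.

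**Figure D1:**
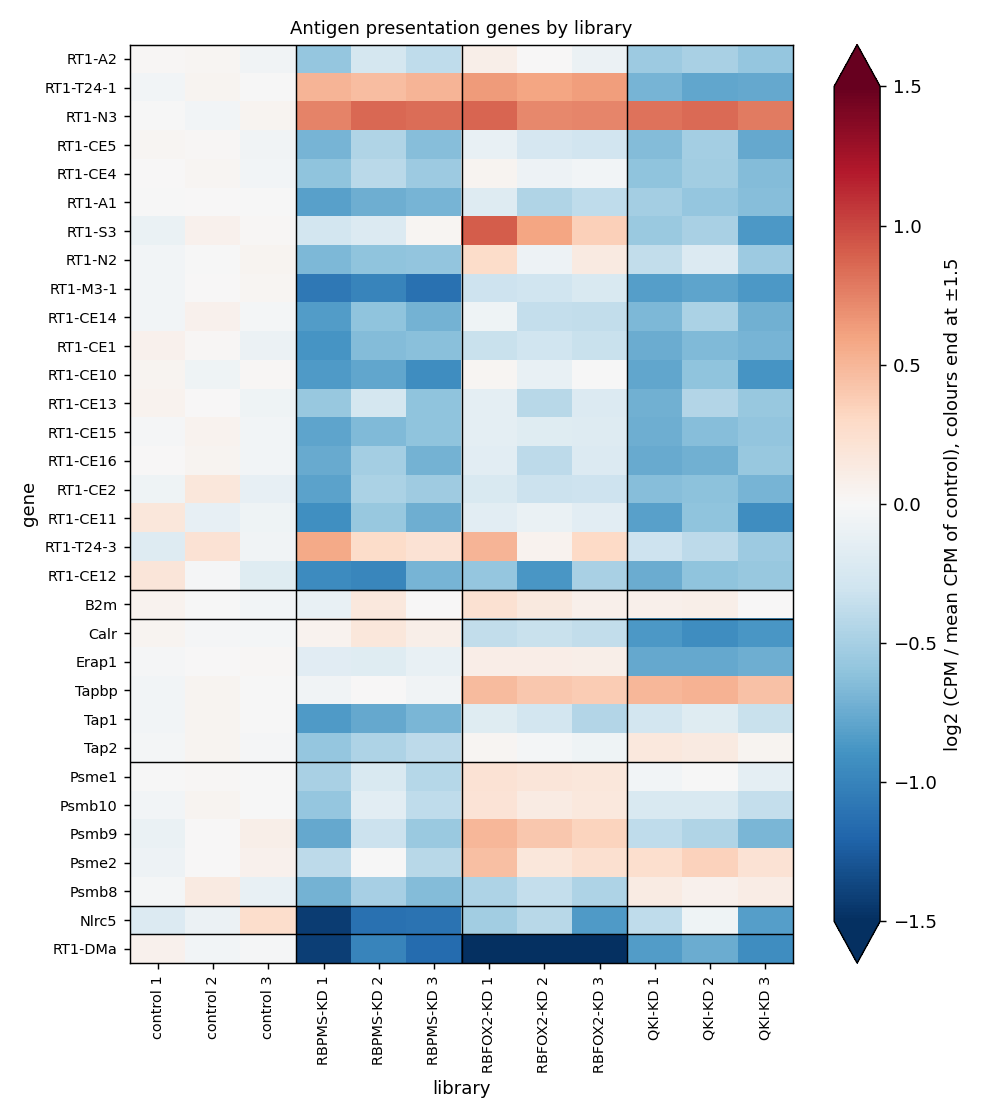
Level of the 32 tested members with a mean of at least 1 CPM (rows, grouped by role) in each of the 12 libraries (columns), as log2 of CPM over the control mean of that gene, with colours ending at ±1.5. The RT1-A and RT1-CE rows are blue in the RBPMS-KD and QKI-KD libraries, RT1-N3 is red in all 9 knockdown libraries, and RT1-DMa is darkest in RBFOX2-KD, where its log2 fold change was -1.84.

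The classical class I rows fell in RBPMS-KD and QKI-KD. RT1-A2, a classical heavy chain, was at 48.6, 48.8 and 46.3 CPM in control, 32.0, 40.05 and 36.9 in RBPMS-KD, 50.7, 48.1 and 44.9 in RBFOX2-KD and 32.9, 34.1 and 32.0 in QKI-KD. All libraries of RBPMS-KD and QKI-KD lay below every control library, and those of RBFOX2-KD overlapped control. The log2 fold change was -0.40 ± 0.064, edgeR adjusted p = 3.75e-05 in RBPMS-KD, -0.54 ± 0.064, edgeR adjusted p = 8.58e-07 in QKI-KD and 0.00 ± 0.063, edgeR adjusted p = 0.993 in RBFOX2-KD.

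RT1-A1, the other classical row above 5 CPM, was at 17.9, 18.0 and 17.9 CPM in control, 10.2, 10.8 and 11.02 in RBPMS-KD, 15.6, 13.1 and 13.8 in RBFOX2-KD and 12.6, 12.02 and 11.5 in QKI-KD. No knockdown library reached the control range, and it fell in all 3 groups, by log2 0.75 in RBPMS-KD, 0.34 in RBFOX2-KD and 0.57 in QKI-KD. RT1-A3 was sparse, at 0.658 ± 0.0537 CPM in control, 0.313 ± 0.0301 in RBPMS-KD, 0.398 ± 0.132 in RBFOX2-KD and 0.354 ± 0.0410 in QKI-KD. It also fell in all 3, at -1.06 ± 0.24, -0.72 ± 0.23 and -0.89 ± 0.23 (edgeR adjusted p = 0.000956, 0.0112 and 0.00279 in RBPMS-KD, RBFOX2-KD and QKI-KD). The knockdowns did not differ from each other by the test.

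The 3 RT1-A rows together gave 66.5 ± 1.43 CPM in control, 47.3 ± 4.41 in RBPMS-KD, 62.5 ± 4.02 in RBFOX2-KD and 45.4 ± 1.33 in QKI-KD, or 71.2%, 94.0% and 68.3% of control. A sum over rows is less exposed than a single row to how shared reads were divided, though reads dropped for matching several genes stay missing. The sums have no test.

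The RT1-CE rows, the non-classical class I genes of the RT1-C/E region, behaved alike. Of 14 rows 12 were tested, and RT1-CE6 and RT1-CE7 held at most 3 and 2 counts in any library. RT1-CE5 was at 43.0, 42.6 and 40.6 CPM in control, 26.0, 30.9 and 27.0 in RBPMS-KD, 39.0, 35.4 and 34.4 in RBFOX2-KD and 26.7, 29.5 and 24.8 in QKI-KD. Control was highest and the 3 ranges of RBPMS-KD, RBFOX2-KD and QKI-KD all lay below it, with log2 fold changes of -0.59 ± 0.069, -0.21 ± 0.068 and -0.64 ± 0.068 (edgeR adjusted p = 1e-06, 0.0111 and 2.36e-07). RT1-CE4 was at 30.7, 31.0 and 29.7 CPM in control, 19.98, 23.0 and 20.9 in RBPMS-KD, 31.4, 28.9 and 29.5 in RBFOX2-KD and 20.1, 21.2 and 19.4 in QKI-KD. It fell in RBPMS-KD (-0.52 ± 0.053) and QKI-KD (-0.59 ± 0.053), and its RBFOX2-KD libraries overlapped control (-0.03 ± 0.052).

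RT1-CE14 was at 8.38, 9.02 and 8.40 CPM in control, 4.80, 5.67 and 5.28 in RBPMS-KD, 8.21, 6.71 and 6.63 in RBFOX2-KD and 5.39, 6.21 and 5.22 in QKI-KD. RT1-CE1 was at 7.49, 7.28 and 6.75 CPM in control, 3.88, 4.55 and 4.64 in RBPMS-KD, 5.70, 5.83 and 5.70 in RBFOX2-KD and 4.29, 4.54 and 4.44 in QKI-KD. Both fell in all 3 knockdowns, by log2 0.71, 0.26 and 0.62 for RT1-CE14 and 0.72, 0.32 and 0.70 for RT1-CE1. The RBFOX2-KD call of RT1-CE14 (edgeR adjusted p = 0.0177) was lost when control library 2 or RBFOX2-KD library 2 or 3 was left out, at -0.23, -0.22 and -0.21, and on library totals, at -0.21. RT1-CE10 fell in RBPMS-KD (-0.85 ± 0.082) and QKI-KD (-0.75 ± 0.081) from a control mean of 6.10 ± 0.245 CPM. RT1-CE2, RT1-CE3, RT1-CE11, RT1-CE12, RT1-CE13, RT1-CE15 and RT1-CE16 had control means between 0.603 and 3.80 CPM, and their log2 fold changes lay between -0.87 and -0.47 in RBPMS-KD, -0.63 and -0.14 in RBFOX2-KD, and -0.79 and -0.57 in QKI-KD. All these values are below 0.

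Over the 12 tested RT1-CE rows, 11 fell in RBPMS-KD, 7 in RBFOX2-KD and 12 in QKI-KD, and none rose. Of all genes tested, 29.0%, 30.1% and 34.0% fell and 30.4%, 30.1% and 32.9% rose. As the RT1-CE rows can share reads, they are not separate measurements. The summed level of the 14 rows was 111 ± 3.08 CPM in control, 73.1 ± 5.77 in RBPMS-KD, 99.1 ± 5.19 in RBFOX2-KD and 71.6 ± 4.54 in QKI-KD. These are 65.7%, 89.1% and 64.4% of control. Between the knockdowns, 10 of the 12 rows were higher in RBFOX2-KD than in QKI-KD, against 35.0% of all genes tested. In RBPMS-KD 9 were lower than in RBFOX2-KD, against 27.9%. No RT1-CE row differed between RBPMS-KD and QKI-KD by edgeR's adjusted p, where 29.0% of all genes were lower in RBPMS-KD and 32.0% higher.

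The 20 remaining class I rows split. RT1-N3 rose in all 3 knockdowns and was the only one of the 27 tested class I rows to do so, while 10 rows fell in all 3. The share of all genes that moved alike in all 3 was not counted. All of the 10 but RT1-M3-1 were RT1-A or RT1-CE rows, which can share reads. RT1-N3 was at 22.4, 21.8 and 23.1 CPM in control, 37.5, 40.7 and 40.02 in RBPMS-KD, 40.9, 37.0 and 37.4 in RBFOX2-KD and 39.4, 40.6 and 38.4 in QKI-KD. Every knockdown library lay well above the control range, and the knockdowns overlapped each other. The log2 fold changes were 0.81 ± 0.048, edgeR adjusted p = 1.85e-10 in RBPMS-KD, 0.78 ± 0.047, edgeR adjusted p = 2.48e-10 in RBFOX2-KD and 0.82 ± 0.048, edgeR adjusted p = 7.71e-11 in QKI-KD.

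RT1-T24-1 moved in opposite directions. It was at 29.9, 31.8 and 30.8 CPM in control, 44.0, 42.4 and 44.0 in RBPMS-KD, 47.9, 46.4 and 47.7 in RBFOX2-KD and 19.03, 18.0 and 18.2 in QKI-KD. No 2 groups overlapped, with QKI-KD lowest and RBFOX2-KD highest. It rose in RBPMS-KD (0.49 ± 0.039, edgeR adjusted p = 7.31e-09) and RBFOX2-KD (0.62 ± 0.039, edgeR adjusted p = 3.44e-10) and fell in QKI-KD (-0.75 ± 0.04, edgeR adjusted p = 2.42e-11).

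RT1-S3 was at 12.1, 13.6 and 13.2 CPM in control, 10.7, 11.3 and 13.3 in RBPMS-KD, 24.4, 19.6 and 16.6 in RBFOX2-KD and 8.86, 9.26 and 7.14 in QKI-KD. RBFOX2-KD was highest, with its libraries spread widely, and QKI-KD was lowest. It rose in RBFOX2-KD (0.64 ± 0.12, edgeR adjusted p = 0.000142), with values between 0.47 and 0.75 when single libraries were left out, and fell in QKI-KD (-0.63 ± 0.12, edgeR adjusted p = 0.00021). RBPMS-KD overlapped control (-0.14 ± 0.12). RT1-N2 was at 14.3, 14.7 and 15.1 CPM in control, 9.19, 9.67 and 9.71 in RBPMS-KD, 17.8, 13.98 and 16.1 in RBFOX2-KD and 11.4, 12.7 and 10.1 in QKI-KD. It fell in RBPMS-KD (-0.62 ± 0.084) and QKI-KD (-0.37 ± 0.083), and RBFOX2-KD overlapped control (0.12 ± 0.081). Leaving out single libraries moved the RBFOX2-KD value between 0.026 and 0.19, and it passed the threshold without RBFOX2-KD library 2 (edgeR adjusted p = 0.0461).

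RT1-M3-1, the rat counterpart of mouse H2-M3, which presents N-formylated peptides, had the largest fall among class I rows above 5 CPM in RBPMS-KD and QKI-KD. It was at 17.1, 17.6 and 17.9 CPM in control, 8.37, 8.85 and 8.05 in RBPMS-KD, 14.2, 14.3 and 15.0 in RBFOX2-KD and 9.88, 10.2 and 9.68 in QKI-KD. The 4 groups did not overlap and stood in the order control, RBFOX2-KD, QKI-KD, RBPMS-KD. The log2 fold change was -1.06 ± 0.052, edgeR adjusted p = 2.04e-11 in RBPMS-KD, close to the 2-fold limit, -0.27 ± 0.05 in RBFOX2-KD and -0.82 ± 0.051 in QKI-KD.

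The other class I rows were near the lower end of detection. RT1-M6-2 was at 0.406 ± 0.105 CPM in control, 1.01 ± 0.235 in RBPMS-KD, 0.984 ± 0.0446 in RBFOX2-KD and 0.392 ± 0.0846 in QKI-KD, and it changed upward in RBPMS-KD (1.31 ± 0.22, edgeR adjusted p = 7.74e-05) and RBFOX2-KD (1.27 ± 0.22, edgeR adjusted p = 9.29e-05) with no overlap with control. RT1-T24-4 fell in RBPMS-KD (-0.82 ± 0.23) from 0.571 ± 0.0494 CPM, and RT1-T24-3 fell in QKI-KD (-0.42 ± 0.16) from 1.14 ± 0.167 CPM. RT1-M6-1, RT1-T24-2, RT1-S2 and RT1-T18 had group means between 0.0359 and 0.229 CPM, and no difference from control was detectable at this depth. RT1-O1, RT1-M10-1, RT1-M1-2, RT1-M5, RT1-M4 and RT1-M2 held at most 6 counts in any library, and RT1-M1-4 and RT1-M1-5 held 0 in all.

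Class I as a whole came to 279 ± 3.76 CPM in control, 236 ± 11.4 in RBPMS-KD, 301 ± 16.8 in RBFOX2-KD and 207 ± 9.22 in QKI-KD over its 37 rows. The sums are 84.7%, 108.1% and 74.1% of control. The 20 rows outside RT1-A and RT1-CE summed to 101 ± 2.54 CPM in control, 116 ± 2.36 in RBPMS-KD, 140 ± 7.88 in RBFOX2-KD and 89.7 ± 3.64 in QKI-KD. Their sum was above control in RBPMS-KD and RBFOX2-KD although single rows went both ways, with 3 of 12 tested rows rising and 3 falling in RBPMS-KD and 4 rising and 1 falling in RBFOX2-KD. Of the 27 tested class I rows, 17 fell and 3 rose in RBPMS-KD, 10 fell and 4 rose in RBFOX2-KD, and 20 fell and 1 rose in QKI-KD. The falls are 63.0%, 37.0% and 74.1% of these rows, against 29.0%, 30.1% and 34.0% of all genes tested, so the RBFOX2-KD share was near that of all genes. The median log2 fold changes were -0.60, -0.15 and -0.62.

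B2m, the invariant light chain that all class I molecules need, did not follow the summed heavy chains down in RBPMS-KD and QKI-KD. It was at 595, 570.4 and 558 CPM in control, 533, 639 and 578 in RBPMS-KD, 673, 637 and 604 in RBFOX2-KD and 608, 613 and 579 in QKI-KD. RBPMS-KD and QKI-KD overlapped control, with log2 fold changes of 0.02 ± 0.054 and 0.06 ± 0.054. It rose in RBFOX2-KD (0.15 ± 0.054, edgeR adjusted p = 0.0235), a call lost when control library 2 or 3 or RBFOX2-KD library 1 or 2 was left out (0.10 to 0.14). The RBPMS-KD value turned to -0.02 on library totals and -0.05 without RBPMS-KD library 2, and the QKI-KD value passed the threshold on library totals, at 0.15, and on the normalised table, at 0.18.

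**Figure D2:**
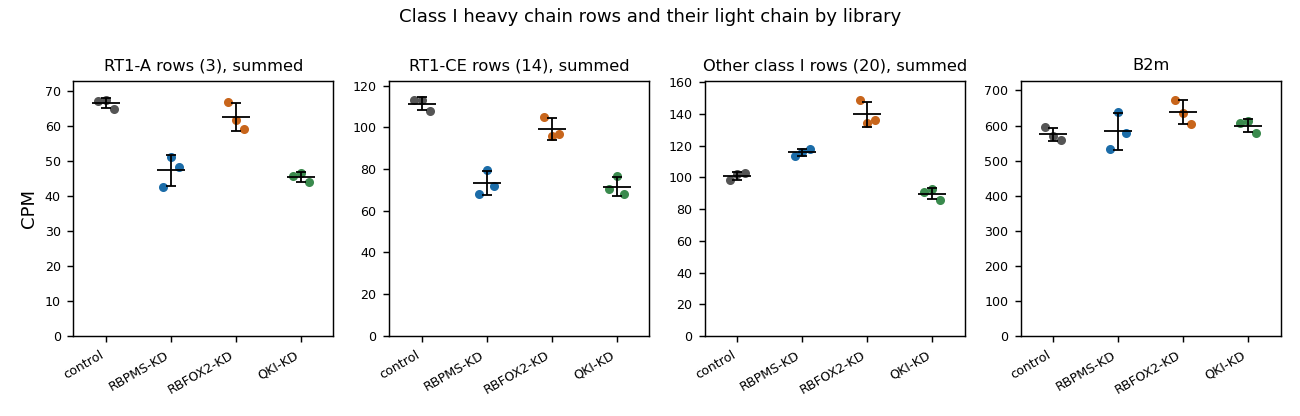
Summed CPM of the 3 RT1-A rows, the 14 RT1-CE rows and the 20 other class I rows, and CPM of B2m, in each library (points) with group mean and SD (black), from 0. RT1-A and RT1-CE are near 70% of control or lower in RBPMS-KD and QKI-KD, the other class I rows are highest in RBFOX2-KD at 140 CPM, and B2m stays between 533 and 673 CPM.

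The promoters of a classical row that fell, RT1-A2, and of the class I row that rose in all 3 knockdowns, RT1-N3, are shown. They are the 250 bases before the RefSeq start on GRCr8, a later build than the one counted on, RT1-A2 at chr20:4872621-4872870, plus strand, and RT1-N3 at chr20:2666239-2666488, plus strand. Capitals mark matches, on either strand, to the kappa B letters GGGATTCCC, the CCAAT box, the interferon-stimulated response element core GAAANNGAA and the gamma-activated site TTCNNNGAA.
RT1-A2: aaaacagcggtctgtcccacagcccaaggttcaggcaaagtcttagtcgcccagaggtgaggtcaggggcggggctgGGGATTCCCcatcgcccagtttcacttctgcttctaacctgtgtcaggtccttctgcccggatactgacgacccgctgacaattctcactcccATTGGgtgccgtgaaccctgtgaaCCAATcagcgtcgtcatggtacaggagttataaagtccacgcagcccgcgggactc
RT1-N3: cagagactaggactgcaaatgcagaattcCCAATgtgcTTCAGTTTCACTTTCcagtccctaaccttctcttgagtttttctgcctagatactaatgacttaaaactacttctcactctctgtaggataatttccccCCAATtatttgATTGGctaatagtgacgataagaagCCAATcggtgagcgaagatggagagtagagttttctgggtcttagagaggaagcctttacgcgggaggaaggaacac

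The RT1-A2 window held 1 kappa B match and 2 CCAAT boxes, and the RT1-N3 window held 4 CCAAT boxes, 2 overlapping response element cores and no kappa B match. Only exact letters were searched, so this contrast depends on the letters chosen. Both windows hold the run cagtttcactt, which lies inside the marked stretch of RT1-N3 and is unmarked in RT1-A2. Promoters were found for 52 of the 61 members and 39 of the 44 tested. The kappa B letters occurred in 8 of the 52, all of them class I rows (RT1-A1, RT1-A2, RT1-A3, RT1-CE4, RT1-CE10, RT1-CE11, RT1-CE13 and RT1-CE16), against 0.272% of 33469 promoters of the same length. These 8 promoters belong to related genes and are not separate observations. CCAAT boxes occurred in 33 of 52 against 34% of all, response element cores in 9 against 8.12%, and gamma-activated sites in 3 against 7.67%. A match is a run of letters, not a site, and a link of matches to direction was not tested. The rows with kappa B letters fell in RBPMS-KD and QKI-KD, and so did RT1-CE1, RT1-CE2, RT1-CE5, RT1-CE12 and RT1-CE15, which held none. Of the members with response element cores, Psmb10, Psme2, Tap1 and Tap2 fell in RBPMS-KD and RT1-N3 rose. B2m, RT1-S2, RT1-S3 and Tapbp did neither.

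Both transporter genes were lowest in RBPMS-KD. Tap1, a subunit of the peptide transporter, was at 63.6, 67.6 and 65.5 CPM in control, 36.5, 38.6 and 40.7 in RBPMS-KD, 58.0, 54.0 and 48.3 in RBFOX2-KD and 54.2, 57.9 and 52.1 in QKI-KD. All 3 knockdowns lay below control, RBPMS-KD lowest by far. The log2 fold change was -0.76 ± 0.06, edgeR adjusted p = 6.64e-09 in RBPMS-KD, -0.29 ± 0.059, edgeR adjusted p = 0.000325 in RBFOX2-KD and -0.26 ± 0.059, edgeR adjusted p = 0.000797 in QKI-KD.

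Tap2, the partner subunit, was at 53.8, 56.5 and 54.5 CPM in control, 36.8, 39.8 and 41.7 in RBPMS-KD, 56.2, 53.9 and 52.5 in RBFOX2-KD and 61.2, 60.3 and 56.7 in QKI-KD. Only RBPMS-KD lay below control (-0.48 ± 0.047, edgeR adjusted p = 1.23e-07). RBFOX2-KD overlapped control (-0.02 ± 0.046). The small rise in QKI-KD (0.11 ± 0.046, edgeR adjusted p = 0.0425) was lost when control library 1 or 3 or QKI-KD library 1 or 2 was left out, at 0.096, 0.10, 0.089 and 0.10.

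Tapbp encodes tapasin, which holds TAP and the empty heavy chain together. It was at 81.2, 85.8 and 83.1 CPM in control, 80.6, 83.6 and 80.4 in RBPMS-KD, 116, 111 and 109 in RBFOX2-KD and 117, 119.6 and 113 in QKI-KD. RBFOX2-KD and QKI-KD lay above every other library and RBPMS-KD overlapped control. It rose in RBFOX2-KD (0.42 ± 0.037, edgeR adjusted p = 2.42e-08) and QKI-KD (0.48 ± 0.037, edgeR adjusted p = 2.7e-09), with -0.03 ± 0.037 in RBPMS-KD.

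Erap1, the aminopeptidase that trims peptides in the endoplasmic reticulum, was at 160.1, 163 and 165 CPM in control, 145, 143 and 151 in RBPMS-KD, 175, 174 and 172 in RBFOX2-KD and 95.8, 95.3 and 97.5 in QKI-KD. QKI-KD stood far below the other groups. It fell in QKI-KD (-0.76 ± 0.031, edgeR adjusted p = 6.56e-13) and, less, in RBPMS-KD (-0.15 ± 0.031, edgeR adjusted p = 0.000341). The rise in RBFOX2-KD (0.10 ± 0.031, edgeR adjusted p = 0.0127) was lost without control library 1 or RBFOX2-KD library 1 or 2, at 0.082, 0.084 and 0.083.

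Calr encodes calreticulin, a lectin chaperone of the endoplasmic reticulum that serves many glycoproteins beside class I. It was at 1935, 1849.9 and 1841 CPM in control, 1938, 2104 and 1992 in RBPMS-KD, 1456, 1488 and 1452 in RBFOX2-KD and 1029, 983 and 1020.1 in QKI-KD. QKI-KD was lowest, RBFOX2-KD lay between it and control, and RBPMS-KD lay just above control. It fell in QKI-KD (-0.89 ± 0.036, edgeR adjusted p = 4.69e-13) and RBFOX2-KD (-0.36 ± 0.035, edgeR adjusted p = 1.35e-07). The rise in RBPMS-KD (0.10 ± 0.035, edgeR adjusted p = 0.0206) was lost without control library 2 or 3 or RBPMS-KD library 2, at 0.091, 0.087 and 0.066, and on library totals, at 0.057.

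The immunoproteasome subunits all fell in RBPMS-KD. Psmb9 (subunit beta-1i) was at 15.9, 17.0 and 18.1 CPM in control, 10.0, 13.6 and 11.6 in RBPMS-KD, 24.0, 22.5 and 21.4 in RBFOX2-KD and 13.1, 12.4 and 10.6 in QKI-KD. RBFOX2-KD was above control, and RBPMS-KD and QKI-KD overlapped each other below it. It fell in RBPMS-KD (-0.53 ± 0.093, edgeR adjusted p = 9.39e-05) and QKI-KD (-0.50 ± 0.093, edgeR adjusted p = 0.000135) and rose in RBFOX2-KD (0.41 ± 0.09, edgeR adjusted p = 0.000774).

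Psmb10 (beta-2i) was at 38.4, 40.4 and 39.4 CPM in control, 26.3, 35.3 and 30.2 in RBPMS-KD, 45.5, 42.9 and 43.9 in RBFOX2-KD and 33.5, 33.6 and 30.7 in QKI-KD. It fell in RBPMS-KD (-0.36 ± 0.073, edgeR adjusted p = 0.000392) and QKI-KD (-0.27 ± 0.073, edgeR adjusted p = 0.00327). In RBFOX2-KD its libraries were all above control, at 0.16 ± 0.072, edgeR adjusted p = 0.0628, and the call was gained in 6 of the alternatives tried, among them library totals (0.22) and the normalised table (0.20). Psmb8 (beta-5i) was sparser, at 4.16, 4.67 and 3.95 CPM in control, 2.61, 3.02 and 2.72 in RBPMS-KD, 3.09, 3.33 and 3.10 in RBFOX2-KD and 4.65, 4.45 and 4.62 in QKI-KD. It fell in RBPMS-KD (-0.61 ± 0.087, edgeR adjusted p = 9.54e-06) and RBFOX2-KD (-0.43 ± 0.084, edgeR adjusted p = 0.000315), and QKI-KD overlapped control (0.10 ± 0.083).

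The constitutive subunits that these replace were tested beside them, and none was lower by the test in RBPMS-KD or QKI-KD. Psmb6, replaced by Psmb9, had log2 fold changes of 0.25 ± 0.092 in RBPMS-KD, -0.16 ± 0.092 in RBFOX2-KD and 0.40 ± 0.091 in QKI-KD, and rose in the first and last. Psmb7, replaced by Psmb10, rose in RBPMS-KD (0.30 ± 0.049) and QKI-KD (0.31 ± 0.049). Psmb5, replaced by Psmb8, fell in RBFOX2-KD (-0.27 ± 0.054). The ratio of Psmb9 to Psmb6 counts was 0.585 of the control ratio in RBPMS-KD, 1.48 in RBFOX2-KD and 0.533 in QKI-KD. For Psmb10 to Psmb7 the values were 0.628, 1.06 and 0.666, and for Psmb8 to Psmb5 they were 0.629, 0.901 and 1.13. These ratios are descriptions, since an exact permutation test of 3 libraries against 3 cannot give a two-sided p below 0.1.

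PA28, the proteasome activator, is made of Psme1 and Psme2. Psme1 was at 95.6, 97.0 and 95.4 CPM in control, 68.8, 82.2 and 71.5 in RBPMS-KD, 112, 109 and 108 in RBFOX2-KD and 93.6, 95.9 and 86.5 in QKI-KD. It fell in RBPMS-KD (-0.37 ± 0.054, edgeR adjusted p = 1.23e-05), rose in RBFOX2-KD (0.19 ± 0.053, edgeR adjusted p = 0.00534) and overlapped control in QKI-KD (-0.06 ± 0.053). Psme2 was at 8.003, 8.43 and 8.78 CPM in control, 6.39, 8.34 and 6.28 in RBPMS-KD, 11.5, 9.48 and 9.91 in RBFOX2-KD and 10.0, 10.7 and 9.78 in QKI-KD. RBPMS-KD overlapped control, and the other 2 knockdowns lay above it. Its calls, -0.26 ± 0.097, edgeR adjusted p = 0.0294 in RBPMS-KD, 0.29 ± 0.094, edgeR adjusted p = 0.0126 in RBFOX2-KD and 0.27 ± 0.094, edgeR adjusted p = 0.0175 in QKI-KD, were each lost when 1 of several libraries was left out. The lowest remaining sizes were -0.18 without RBPMS-KD library 3, 0.20 without RBFOX2-KD library 1 and 0.24 without control library 1 or QKI-KD library 2.

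Tap1 and Psmb9 are head-to-head neighbours, with RefSeq starts 457 bases apart on GRCr8, and their promoter windows are shown because the pair parted in RBFOX2-KD. Tap1 covers chr20:4668544-4668793 on the minus strand and Psmb9 chr20:4668750-4668999 on the plus strand, with the same marks as above.
Tap1: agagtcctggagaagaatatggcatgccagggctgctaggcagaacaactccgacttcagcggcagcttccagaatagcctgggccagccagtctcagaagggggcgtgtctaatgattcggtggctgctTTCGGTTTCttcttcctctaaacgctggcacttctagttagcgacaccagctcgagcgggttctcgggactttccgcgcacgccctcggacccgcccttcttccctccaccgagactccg
Psmb9: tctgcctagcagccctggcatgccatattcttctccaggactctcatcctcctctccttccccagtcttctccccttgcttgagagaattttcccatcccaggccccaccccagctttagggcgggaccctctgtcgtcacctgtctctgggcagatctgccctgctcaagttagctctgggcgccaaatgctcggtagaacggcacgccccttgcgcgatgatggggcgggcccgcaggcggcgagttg

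The Tap1 window held 1 response element core, read on the opposite strand, and the Psmb9 window held none of the 4 motifs. Both windows lie in the 457 bases between the 2 starts. The core, 120 bases from the Tap1 start, is therefore also upstream of Psmb9, beyond its 250-base window. It cannot be assigned to 1 gene of the pair. In RBPMS-KD and QKI-KD both genes fell. In RBFOX2-KD Tap1 fell while Psmb9 rose, and the Psmb9 to Tap1 count ratio was 1.64 times that of control, against 1.17 in RBPMS-KD and 0.847 in QKI-KD. The ratio was 0.251 to 0.276 in control libraries and 0.414 to 0.443 in RBFOX2-KD libraries. Tap2 and Psmb8 are neighbours in the same region, and the Psmb8 to Tap2 count ratio was 0.912, 0.756 and 0.994 of control in RBPMS-KD, RBFOX2-KD and QKI-KD.

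**Figure D3:**
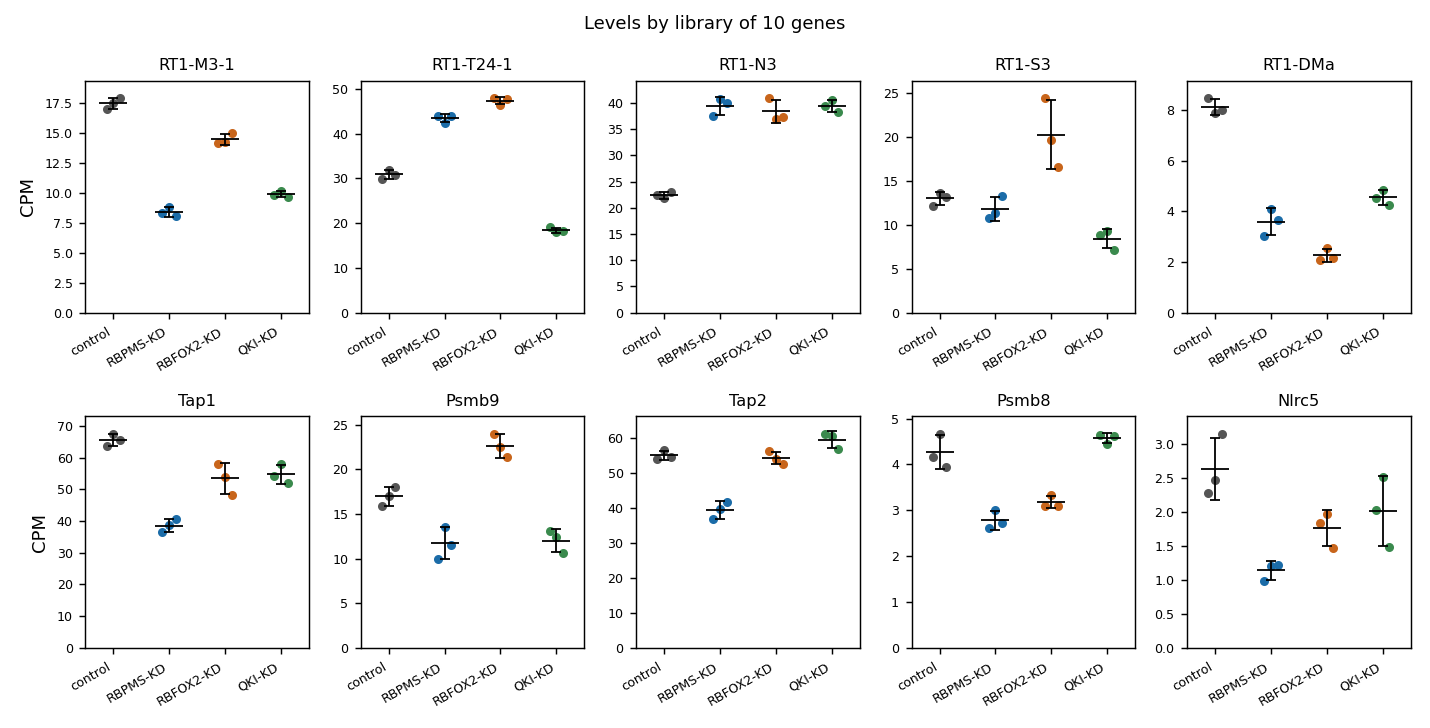
CPM of 10 members in each library (points) with group mean and SD (black), each panel from 0. Tap1 and Tap2 are lowest in RBPMS-KD, Psmb9 is highest in RBFOX2-KD at a mean of 22.6 CPM, RT1-N3 is above control in every knockdown library, and RT1-DMa is below control in all 3.

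The transactivators parted. Nlrc5, the class I transactivator, was at 2.29, 2.48 and 3.16 CPM in control, 0.987, 1.21 and 1.23 in RBPMS-KD, 1.84, 1.98 and 1.47 in RBFOX2-KD and 2.03, 2.52 and 1.49 in QKI-KD. RBPMS-KD was lowest and did not overlap control, and QKI-KD did overlap it. It changed in RBPMS-KD (-1.21 ± 0.18, edgeR adjusted p = 2.09e-05), fell in RBFOX2-KD (-0.58 ± 0.17, edgeR adjusted p = 0.00769) and stood at -0.39 ± 0.17, edgeR adjusted p = 0.0531 in QKI-KD. Ciita, the class II transactivator, was at 0.593 ± 0.168 CPM in control, 0.681 ± 0.152 in RBPMS-KD, 0.488 ± 0.153 in RBFOX2-KD and 0.791 ± 0.357 in QKI-KD, and no difference from control was detectable.

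Class II rows were near the floor of detection. The 6 classical class II rows (RT1-Ba, RT1-Bb, RT1-Da, RT1-Db1, RT1-Db2 and RT1-Ha) held 2 to 15 counts per library in all, and none was tested. RT1-DOa held at most 6 counts. Cd74, the invariant chain, was at 0.195 ± 0.0233 CPM in control, 0.171 ± 0.113 in RBPMS-KD, 0.279 ± 0.0391 in RBFOX2-KD and 0.261 ± 0.113 in QKI-KD, and no group differed from control by the test. RT1-DMb and RT1-DOb had group means of at most 0.169 CPM. RT1-DOb changed downward in RBFOX2-KD (-1.58 ± 0.66, edgeR adjusted p = 0.0471), from 10 to 12 counts in each control library to 3 or 4 counts. In RBPMS-KD it held 2 to 5 counts and did not pass the test (-1.23 ± 0.65, edgeR adjusted p = 0.116). RBPMS-KD and RBFOX2-KD did not differ in the direct contrast (0.35 ± 0.77, edgeR adjusted p = 0.722).

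RT1-DMa was the only class II member above 1 CPM in any library. It encodes a chain of DM, which loads peptide onto class II in endosomes. It was at 8.46, 7.88 and 7.98 CPM in control, 3.04, 4.07 and 3.65 in RBPMS-KD, 2.08, 2.55 and 2.15 in RBFOX2-KD and 4.54, 4.85 and 4.24 in QKI-KD. The 4 groups did not overlap, with RBFOX2-KD lowest. It changed in RBFOX2-KD (-1.84 ± 0.1, edgeR adjusted p = 7.73e-11) and RBPMS-KD (-1.17 ± 0.1, edgeR adjusted p = 2.03e-08) and fell in QKI-KD (-0.83 ± 0.097, edgeR adjusted p = 7.02e-07). Its partner chain RT1-DMb was at most 0.116 CPM in every library.

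Leukocyte markers were low, and their sum was higher in the knockdowns. The 10 markers summed to 2.34 to 2.55 CPM in control libraries, 4.83 to 5.30 in RBPMS-KD, 5.38 to 5.69 in RBFOX2-KD and 8.59 to 9.72 in QKI-KD. Of the 7 tested, 2, 3 and 3 rose and none fell. The shares that rose were 28.6%, 42.9% and 42.9%, against 30.4%, 30.1% and 32.9% of all genes, of which 29.0%, 30.1% and 34.0% fell. The lowest log2 fold change among the 7 was -1.12 in RBPMS-KD and -1.20 in QKI-KD, where no marker passed the test downward. In RBFOX2-KD the lowest was 0.26, so all 7 lay above 0 there. The 2 with the following levels are among those that were higher. Itgax went from 0.361 ± 0.0982 CPM to 2.26 ± 0.224, 2.64 ± 0.148 and 2.86 ± 0.557, and Csf1r from 0.405 ± 0.0469 to 0.904 ± 0.102, 0.684 ± 0.222 and 3.63 ± 0.337. The defining leukocyte gene Ptprc held at most 4 counts in a library, as did Adgre1. The endothelial markers, 5 genes, summed to 8.73 to 10.8 CPM in control, 8.84 to 9.12 in RBPMS-KD, 5.18 to 5.76 in RBFOX2-KD and 6.46 to 6.75 in QKI-KD. Of the 4 tested, 2, 0 and 2 rose and 1, 2 and 1 fell, to be read against the same shares of all genes. In bulk RNA fewer cells of a kind and less RNA per cell cannot be told apart, and the part of these shifts in the results was not tested.

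**Figure D4:**
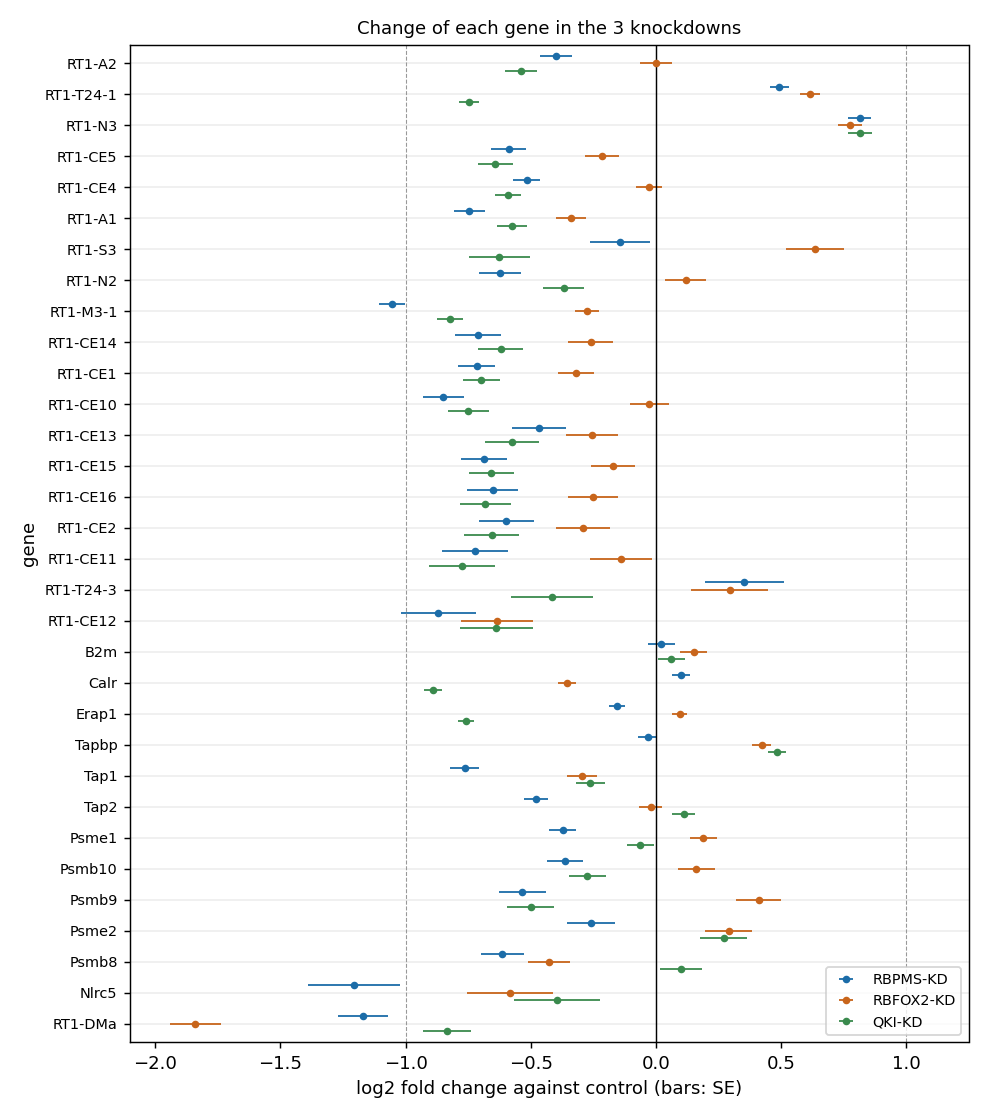
Log2 fold change against control (points, bars are SE) of the 32 tested members with a mean of at least 1 CPM in RBPMS-KD, RBFOX2-KD and QKI-KD, with dashed lines at -1 and 1. The RT1-A and RT1-CE rows lie left of 0 in RBPMS-KD and QKI-KD and nearer 0 in RBFOX2-KD, B2m is near 0 in all 3, and only RT1-M3-1, Nlrc5 and RT1-DMa cross -1 among the members plotted.

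The knockdowns were then set against each other, with a test of each difference. RBPMS-KD and RBFOX2-KD differed in 27 of the 44 tested members, 25 lower in RBPMS-KD (27.9% of all genes) and 2 higher (28.8%). The 25 included Tap1 (log2 difference -0.47 ± 0.06, edgeR adjusted p = 3.41e-06), Tap2 (-0.46 ± 0.047), Tapbp (-0.46 ± 0.037), Psmb9 (-0.94 ± 0.093) and RT1-S3 (-0.78 ± 0.12). The 2 higher were Calr (0.46 ± 0.035) and RT1-DMa (0.67 ± 0.11). None of these exceeded 2-fold.

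RBFOX2-KD and QKI-KD differed in 28 members, 24 higher in RBFOX2-KD (35.0% of all genes) and 4 lower (33.5%). The 24 included 18 class I rows, Erap1 (0.85 ± 0.031), Calr (0.54 ± 0.035) and Psmb9 (0.91 ± 0.092, edgeR adjusted p = 1.14e-07). The 4 lower were RT1-DMa (-1.005 ± 0.11), RT1-DOb (-2.61 ± 0.61), Psmb8 (-0.53 ± 0.085) and Tap2 (-0.13 ± 0.046).

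RBPMS-KD and QKI-KD, both with lower class I rows, differed in 18 members, 12 lower in RBPMS-KD (29.0% of all genes) and 6 higher (32.0%). The lower ones included Tap1 (-0.50 ± 0.06, edgeR adjusted p = 1.13e-06), Tap2 (-0.59 ± 0.047, edgeR adjusted p = 7.57e-09), Tapbp (-0.52 ± 0.037), Psmb8 (-0.71 ± 0.087), Psme1 (-0.31 ± 0.054), Psme2 (-0.53 ± 0.096) and Nlrc5 (-0.81 ± 0.19). Calr (0.99 ± 0.036, edgeR adjusted p = 1.91e-13) and Erap1 (0.60 ± 0.031, edgeR adjusted p = 2.43e-11) were higher in RBPMS-KD, with RT1-T24-1, RT1-T24-3, RT1-S3 and RT1-M6-2. Psmb9 did not pass the test (-0.03 ± 0.095, edgeR adjusted p = 0.781). On library totals alone the median of all genes shifted by -0.13 in this contrast.

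Of 72 further genes of the pathway in 5 lists, 68 were tested. At the adjusted p, 24 rose and 26 fell in RBPMS-KD, 20 rose and 30 fell in RBFOX2-KD, and 30 rose and 27 fell in QKI-KD. The shares that rose were 35.3%, 29.4% and 44.1%, against 30.4%, 30.1% and 32.9% of all genes, and those that fell were 38.2%, 44.1% and 39.7%, against 29.0%, 30.1% and 34.0%. Past the 2-fold limit there were 3 in RBPMS-KD, all lower, 2 in RBFOX2-KD, both higher, and 2 higher and 6 lower in QKI-KD. The 6 are 8.82% of the 68, near the 9.24% of all genes, and the 3 in RBPMS-KD are 4.41%, near 4.50%. The counts of each list below are to be read against the same shares of all genes.

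No loading partner and no proteasome gene passed the 2-fold limit. Of 13 chaperones, peptidases and other loading partners, 5 rose and 6 fell in each knockdown. Calnexin (Canx), named here with Pdia3 after the values were seen, rose in RBPMS-KD (0.48 ± 0.03), RBFOX2-KD (0.19 ± 0.03) and QKI-KD (0.73 ± 0.03). Pdia3, the oxidoreductase of the loading complex, also rose in the 3, at 0.48 ± 0.031, 0.27 ± 0.031 and 0.68 ± 0.031. Of 17 constitutive proteasome genes, 9 rose and 3 fell in RBPMS-KD, 3 rose and 7 fell in RBFOX2-KD, and 11 rose and 2 fell in QKI-KD.

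Of 23 regulators, 6 rose and 8 fell in RBPMS-KD, 9 rose and 8 fell in RBFOX2-KD, and 9 rose and 10 fell in QKI-KD. The shares that rose, 26.1%, 39.1% and 39.1%, and that fell, 34.8%, 34.8% and 43.5%, were within 10 percentage points of those of all genes. Socs3, a feedback inhibitor of cytokine signalling, rose in RBPMS-KD (0.92 ± 0.062), RBFOX2-KD (1.46 ± 0.061) and QKI-KD (0.68 ± 0.062). Creb1, a component of the enhanceosome at MHC promoters, fell in the 3, at -0.23 ± 0.053, -0.46 ± 0.053 and -1.20 ± 0.055.

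The MHC-like genes outside the RT1 names included 3 that changed. Cd1d1, which presents lipids, fell in RBPMS-KD (-1.32 ± 0.11), RBFOX2-KD (-0.66 ± 0.1) and QKI-KD (-1.48 ± 0.11) from 4.36 ± 0.125 CPM. Mr1, which presents vitamin B metabolites, fell in RBPMS-KD (-1.001 ± 0.1) and QKI-KD (-1.41 ± 0.11) from 5.00 ± 0.170 CPM and stood at -0.06 ± 0.098 in RBFOX2-KD. Hfe, which acts in iron balance, fell in the 3, at -0.94 ± 0.21, -0.72 ± 0.2 and -1.67 ± 0.22 from 1.21 ± 0.207 CPM. Of the 6 tested, 2 rose and 3 fell in RBPMS-KD, 1 rose and 4 fell in RBFOX2-KD, and 2 rose and 4 fell in QKI-KD.

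Among class II and endosomal genes, 9 of 11 tested, 2 rose and 6 fell in RBPMS-KD, 2 and 5 in RBFOX2-KD, and 3 and 5 in QKI-KD. Cd80, a costimulatory ligand, fell in RBPMS-KD (-1.03 ± 0.082), RBFOX2-KD (-0.66 ± 0.08) and QKI-KD (-0.52 ± 0.08) from 7.33 ± 0.628 CPM. Marchf8, a ubiquitin ligase of membrane proteins, rose in the 3, at 0.44 ± 0.033, 0.45 ± 0.033 and 1.01 ± 0.033 from 71.9 ± 1.18 CPM. Cd40, a costimulatory receptor, changed in QKI-KD (1.73 ± 0.58), at group means of at most 0.114 CPM.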

How the data were processed

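Each library's group and number follow its title in the labels. The authors deposited raw counts per gene and a normalised signal table. The methods of the study name STAR on mRatBN7.2 and featureCounts with a RefSeq annotation, and say that the normalised signal came from a noise filter and quantile normalisation. The submitters' processing notes list STAR 2.5.2a. How reads matching several genes were counted is not stated in the sources used here, so each single RT1 class I row is uncertain. Counting by strand is not stated either. Of values from 1 to 19, 68.1% were even, against 50.9% of large values, for a reason the sources do not give, and halved counts were an alternative.

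Members and gene lists were chosen with earlier results of these data known. The main test of the counts was edgeR's quasi-likelihood test (version 4.0.16, R 4.3.3, filterByExpr by group, TMM, 1 coefficient per group, all 12 libraries, glmQLFit and glmQLFTest, two-sided), with Benjamini-Hochberg adjustment over 18438 genes. The normalised signal served only as an alternative, as log2(value + 1) in limma 3.58.1. DESeq2 1.42.0 was another, and other scalings, filters, call rules, a replicate block and leaving out each library were also tried. On simulated data built on QKI-KD against control (18063 genes), the test recovered 80.6% of genes changed 1.5-fold and 96.8% of those changed 2-fold. Every simulated gene had the common dispersion of 0.00241, so these shares do not apply to members with a wider spread. Per-library values are given for members with a mean of at least 5 CPM, and for Psmb8, Nlrc5 and RT1-DMa, added after their values were seen, and group values or ranges for other tested members. Of the other pathway genes, the 3 per list with the largest change past the threshold are named, except for a result that is not reported here, and the proteasome counterparts, Canx and Pdia3 were added after their values were seen. Promoters came from RefSeq (GRCr8). Same-numbered libraries did not deviate together (18 pairs, r from -0.165 to 0.14), so the numbers were not used as pairs. No 2 libraries of the same group were duplicates, with a chi-square per degree of freedom of 4.64 to 57.8 over 12 pairs. Pairs across groups were not checked. Library totals were 111 to 152 M counts, unequal and above the common read number to which the methods describe reducing each library, so the precision that these totals seem to give may be overstated.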

Additional observations from a re-analysis of the deposited data

Results flagged for a closer look

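For 9 results, the effect of 1 knockdown differed from that of another by more than 2-fold with an edgeR adjusted p under 0.05 in the direct contrast. RBPMS-KD stood above QKI-KD for RT1-M6-2 (log2 difference 1.37 ± 0.23 SE, edgeR adjusted p = 5.50e-05) and RT1-T24-1 (1.24 ± 0.040, 4.77e-14). It stood below QKI-KD for RT1-DOb (-2.26 ± 0.61, 0.00382).

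RBFOX2-KD stood above QKI-KD for RT1-M6-2 (1.33 ± 0.23, edgeR adjusted p = 5.30e-05), RT1-S3 (1.26 ± 0.12, 5.25e-08), RT1-T24-1 (1.36 ± 0.040, 9.23e-15) and RT1-DMb (1.57 ± 0.51, 0.0122). It stood below QKI-KD for RT1-DOb (-2.61 ± 0.61, 0.00111) and RT1-DMa (-1.005 ± 0.11, 1.81e-07). RT1-DOb and RT1-DMb rest on few counts, and the second QKI-KD library held the highest RT1-DOb level, 0.331 CPM against 0.0722 and 0.105 CPM in the others of that group.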

How the results depend on the processing

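Members changed numbered 5 in RBPMS-KD, 3 in RBFOX2-KD and 0 in QKI-KD, other pathway genes 3, 2 and 8, and members that differed 0 between RBPMS-KD and RBFOX2-KD, 3 between RBPMS-KD and QKI-KD and 6 between RBFOX2-KD and QKI-KD. With adjusted p alone these became 31, 26 and 30, then 50, 50 and 57, then 27, 18 and 28. Testing against a 2-fold change (glmTreat) left 0 members in RBPMS-KD and 1 in RBFOX2-KD, 1, 1 and 5 other genes, and 1 and 2 members in the last 2 contrasts. A mean of at least 200 counts left 3 and 1 members in RBPMS-KD and RBFOX2-KD and 1 and 3 in the last 2 contrasts, since fewer genes were tested. The normalised table gave 1 member in QKI-KD and 1 other gene in RBPMS-KD. On library totals 1 member differed between RBPMS-KD and RBFOX2-KD, and class I summed to 274 CPM in control (main 279). The normalised table gave 219 CPM in QKI-KD (main 207).

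Leaving out single libraries gave 4 to 6 members in RBPMS-KD, 2 to 3 in RBFOX2-KD (3 without RBFOX2-KD library 1) and 0 to 1 in QKI-KD (1 without control library 3 or QKI-KD library 1). Other genes ran 2 to 4, 1 to 3 (1 without RBFOX2-KD library 1) and 6 to 8. Members that differed ran 0 to 1 (1 without RBPMS-KD library 1 or 2), 2 to 5 (5 without RBPMS-KD library 1) and 4 to 6.

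Changes of sign occurred for values near 0 that passed no threshold. RT1-A2 in RBFOX2-KD came to -0.00694 with RLE factors, -0.00741 with DESeq2, -0.0123 with no filter, and -0.0494 to 0.0378 without single libraries (below 0 at -0.025, -0.0494 and -0.0134). B2m in RBPMS-KD came to -0.0224 on library totals, -0.0204 on the normalised table and -0.0493 to 0.083 without single libraries. On library totals and the normalised table, RT1-CE4 in RBFOX2-KD came to 0.028 and 0.0137, Tap2 in RBFOX2-KD to 0.0342 and 0.00848 (and 0.00216 at 200 counts or more), and Psme1 in QKI-KD to 0.0242 and 0.00173. Library totals shift the median of all genes by -0.0442 in RBPMS-KD, 0.0542 in RBFOX2-KD and 0.0858 in QKI-KD, which is the size of the moves on that scale. The cause of the other sign changes was not tested. Among single genes, 9 calls were lost and 8 gained over the other alternatives, and 25 lost and 1 gained without single libraries.

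With the replicate number as a block, the counts of changed members stayed at 5, 3 and 0, and Tap2 in QKI-KD lost its call at 0.11. The numbers do not pair the libraries. Depth and few counts limit RT1-M6-1, RT1-T24-2, RT1-S2, RT1-T18, RT1-DMb, RT1-DOb and Cd74.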
